A study of Mus musculus with 2 samples.

Results

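The dystrophin-associated glycoprotein complex was described through 8 of its genes, Dmd, Utrn, Dag1, Sgca, Sgcb, Sgcd, Sspn and Dtna, in DNase-seq libraries of mouse gastrocnemius, a calf muscle. DNase I cuts DNA that is not wrapped in nucleosomes, and stretches with many cuts are called as peaks. A peak was taken as a member when its centre lay within 50 kb of any annotated transcript start of the 8 genes, each start by itself, in the longer of the deposited peak lists of its library. This gave 116 of 94295 peaks in replicate 1 and 163 of 123291 in replicate 2, around 8 of 21951 protein-coding genes. The study held 1 group of 2 libraries, both from B6CASTF1/J male mice aged 4 days with no treatment or allele named. The labels of each library speak of 3 males and call the libraries biological replicates 1 and 2. They give a single donor entry for both, and whether each library came from pooled animals is not stated. Since all samples were of the same kind, no p-value was computed, and values are given for each library, with the mean ± SD over both where this helps.

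Dystrophin, the product of Dmd, ties the actin cytoskeleton of the muscle fibre to a complex in the sarcolemma, and utrophin, from Utrn, is its close relative and is found at the neuromuscular junction and in developing fibres. Dag1 encodes dystroglycan, whose outer subunit binds laminin in the basement membrane. Sgca, Sgcb and Sgcd encode sarcoglycans, transmembrane partners that steady the complex, Sspn encodes sarcospan, a tetraspan-like protein, and Dtna encodes dystrobrevin, which sits beneath the membrane and carries syntrophins. Dmd is among the longest genes known and has several internal promoters that give shorter dystrophins, such as Dp71.

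Sequences of the sites on which the results turn were read from the GRCm38.p6 reference, which has the coordinates of build mm10 used by the files. They are written 5′ to 3′ on the gene's own strand, with bases that lay in footprints of both libraries in capitals. A footprint is a short stretch, mostly inside a peak, that the authors' files list as protected from cutting. The reference is that of C57BL/6J, so alleles of the CAST parent are not shown, and untranslated exon bases were left out. The first pair sets the start of full-length dystrophin (chrX:82948781-82948902), where no base lay in a footprint of both libraries, beside the open internal start in intron 62 (chrX:85048221-85048412), where 29 of 192 bases did.
Dmd full-length start: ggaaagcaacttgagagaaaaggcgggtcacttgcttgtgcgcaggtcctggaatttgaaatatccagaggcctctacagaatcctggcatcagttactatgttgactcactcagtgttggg
Dmd intron start: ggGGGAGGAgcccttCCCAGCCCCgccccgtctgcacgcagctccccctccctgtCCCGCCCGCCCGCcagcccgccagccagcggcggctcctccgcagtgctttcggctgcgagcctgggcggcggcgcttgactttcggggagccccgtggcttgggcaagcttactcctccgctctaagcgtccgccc
The next set holds the bases upstream of the strongest start of Utrn (chr10:12869366-12869580, minus strand), of Dag1 (chr9:108263959-108264100, minus strand) and of Sspn (chr6:145934001-145934121, plus strand). Of these bases, 8 of 215, 75 of 142 and 26 of 121 lay in footprints of both libraries. The printed Utrn bases lie past the end of the replicate 2 peak (chr10:12869101-12869340). Their count therefore does not describe the part of the promoter that both peaks share.
Utrn promoter: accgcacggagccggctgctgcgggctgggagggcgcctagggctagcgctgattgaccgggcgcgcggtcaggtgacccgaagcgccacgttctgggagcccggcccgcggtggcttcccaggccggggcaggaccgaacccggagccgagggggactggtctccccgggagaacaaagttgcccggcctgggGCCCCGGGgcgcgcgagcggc
Dag1 promoter: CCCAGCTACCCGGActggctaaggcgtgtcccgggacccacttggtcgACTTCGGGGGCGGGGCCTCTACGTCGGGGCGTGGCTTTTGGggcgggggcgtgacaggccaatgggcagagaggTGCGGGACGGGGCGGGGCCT
Sspn promoter: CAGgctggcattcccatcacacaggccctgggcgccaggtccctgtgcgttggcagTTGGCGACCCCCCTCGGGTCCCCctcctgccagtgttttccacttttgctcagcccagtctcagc

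Distal peaks are those with a centre over 1 kb from every annotated start of any gene. Of these, 4 are shown because they were the strongest shared ones of their gene or held a motif described further on. They lay in a coding exon of Utrn (chr10:12690741-12690900, minus strand), upstream of Sgca (chr11:94979041-94979220, minus strand), upstream of Dag1 (chr9:108280181-108280360, minus strand) and downstream of Sspn (chr6:145998741-145998940, plus strand).
Utrn exon peak: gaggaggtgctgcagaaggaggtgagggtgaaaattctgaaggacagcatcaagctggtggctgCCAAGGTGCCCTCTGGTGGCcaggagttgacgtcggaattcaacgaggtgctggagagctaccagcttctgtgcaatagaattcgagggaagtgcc
Sgca upstream peak: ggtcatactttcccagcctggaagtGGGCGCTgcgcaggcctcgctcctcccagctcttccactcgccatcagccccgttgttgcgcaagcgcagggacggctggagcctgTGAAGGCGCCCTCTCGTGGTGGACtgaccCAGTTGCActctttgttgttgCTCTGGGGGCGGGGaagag
Dag1 upstream peak: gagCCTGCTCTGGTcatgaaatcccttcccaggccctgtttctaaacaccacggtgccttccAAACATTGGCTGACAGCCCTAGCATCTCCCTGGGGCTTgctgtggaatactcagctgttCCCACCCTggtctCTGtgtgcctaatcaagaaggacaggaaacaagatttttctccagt
Sspn downstream peak: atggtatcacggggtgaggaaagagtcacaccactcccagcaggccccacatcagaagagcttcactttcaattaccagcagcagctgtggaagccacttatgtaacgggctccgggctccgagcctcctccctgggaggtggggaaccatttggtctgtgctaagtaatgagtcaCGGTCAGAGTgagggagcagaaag

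All 8 genes had a peak at a start in both libraries, where 65.2% of all protein-coding genes did. A gene counted when any of its starts was open, so genes with more annotated starts had more chances. A start counted as open when a peak touched the 500 bp on either side of it. Of 55 annotated start positions, 31 were open in replicate 1, 34 in replicate 2 and 29 in both, against a background of 51.8% of all start positions of protein-coding genes. A further 19 starts were open in neither library, and at 0 of these 19 did a stretch with a false discovery rate (FDR) below 0.05 fall within 500 bp. Starts of protein-coding transcripts were open in both libraries at 23 of 32 positions, against 58.2% of such starts in all protein-coding genes, and starts of other transcripts at 6 of 23, against 42.9%. Several starts share a peak, so that the open starts were served by 14 distinct strongest peaks in replicate 1 and 16 in replicate 2.

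Peak strength is the deposited density of a peak, and it was ranked within each library from 0 for the weakest peak to 100 for the strongest, since the density scales of the libraries differ. The strongest start peak ranked 99.9 ± 0.14 (SD, n = 2) at Dag1, 92.3 ± 1.96 at Utrn, 91.9 ± 1.19 at Sgcb, 88.3 ± 2.36 at Sspn, 84.7 ± 3.27 at Sgcd, 84.0 ± 3.89 at Sgca, 70.6 ± 3.74 at Dmd and 57.4 ± 3.17 at Dtna. Dag1 was highest and Dtna lowest in both libraries. Utrn and Sgcb changed order between the libraries. Sgcd ranked slightly above Sgca in both, at 82.4 against 81.3 in replicate 1 and 87.0 against 86.8 in replicate 2. Dmd and Dtna ranked below the others in both libraries. Most paired peaks ranked higher in replicate 2, so the SD of a gene is not the spread of a difference between genes. Dmd lies on the X chromosome, which males carry in a single copy, and ranks were not adjusted for copy number. The median over the 8 genes was 86.5, and over all protein-coding genes with a start peak in both libraries it was 92.1. The tissue was bulk muscle, so a site open in few nuclei and a site weakly cut in all of them cannot be told apart.

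**Figure D1:**
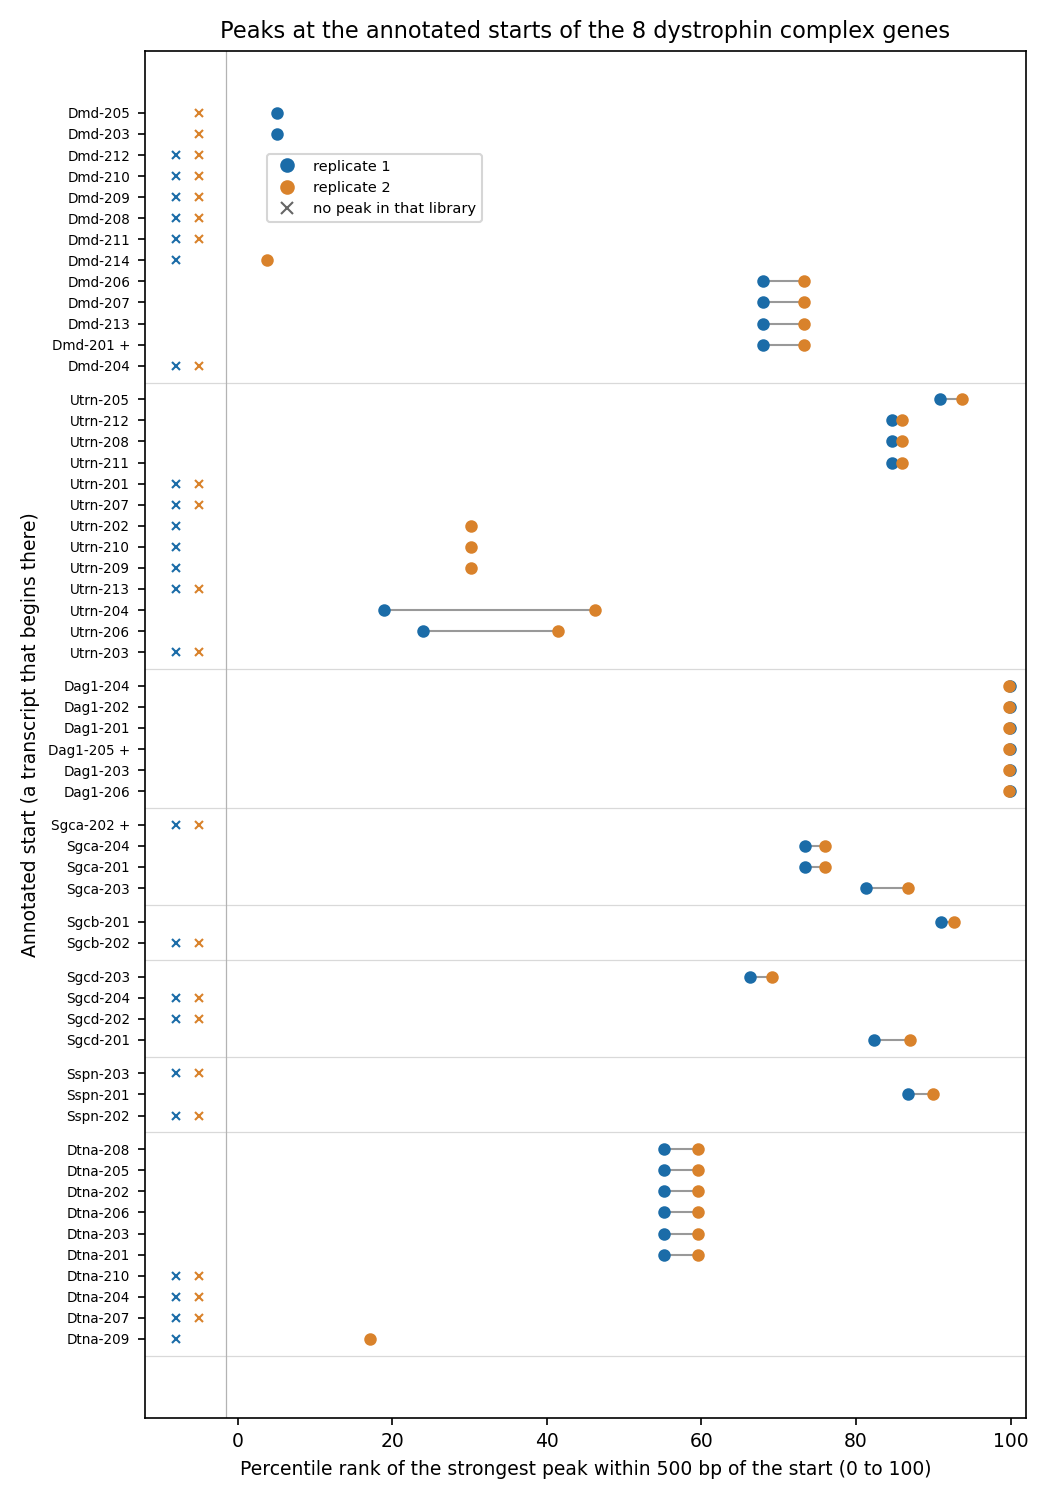
Percentile rank (0 to 100) of the strongest peak within 500 bp of each of the 55 annotated starts, with 1 line for each start, replicate 1 in blue and replicate 2 in orange. Crosses at the left mark libraries with no peak, and a plus after a name means that more than 1 transcript begins there. All starts of Dag1 sit near 100, whereas Dmd has no open start above rank 10 apart from the 4 in intron 62.

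Of the 13 annotated starts of Dmd, 4 were open in both libraries, and all 4 lay in intron 62 of the full-length transcript, between positions 85048295 and 85048413 of the X chromosome. Dmd-201 and Dmd-202, the protein-coding transcripts among them, begin at 85048413, in the place known as the Dp71 promoter. The strongest peak there (chrX:85048201-85048400 in replicate 1) had a density of 1.37 in replicate 1 and 0.93 in replicate 2, at ranks 67.9 and 73.2, with 5 footprints in each library. Among all peaks of each library it thus ranked above the middle. As a start peak it was weak, since the median over all protein-coding genes with a start peak in both libraries was 92.1.

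The start of the full-length transcript Dmd-203 in exon 1 (position 82948903) and that of Dmd-205, 33 bp before it, shared a weak peak in replicate 1 only (chrX:82948781-82948940). Its density was 0.26, at rank 5.12, with no footprint. Replicate 2 had no peak there and no stretch with an FDR below 0.05 within 500 bp. The start in intron 55 (Dmd-214) had a peak in replicate 2 only, at density 0.14 and rank 3.84. The other 6 starts, in introns 1, 29 and 44 and in exons 40, 54 and 75, had a peak in neither library. The lowest density listed anywhere was 0.0405 in replicate 1 and 0.0133 in replicate 2, so the lists reached below both of these weak peaks.

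Around the 13 starts, 15 peaks lay in 867 kb in replicate 1 and 16 in replicate 2, or 1.73 and 1.85 peaks per 100 kb. By this measure 16.8% and 14.9% of protein-coding genes had fewer, and the median gene had 5.70 and 7.0. The 7 distal peaks of Dmd found in both libraries were weak, with mean ranks from 1.76 to 19.4. The strongest of them, both intronic, lay 9.83 kb beyond the start of Dmd-204 (chrX:85187681-85187840, densities 0.44 and 0.29, ranks 18.3 and 20.5) and 36.0 kb beyond the open intron 62 starts (chrX:85084241-85084560, densities 0.40 and 0.31, ranks 15.1 and 23.5). Both lie in the 3′ part of the gene, as the map of peaks along Dmd shows.

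**Figure D2:**
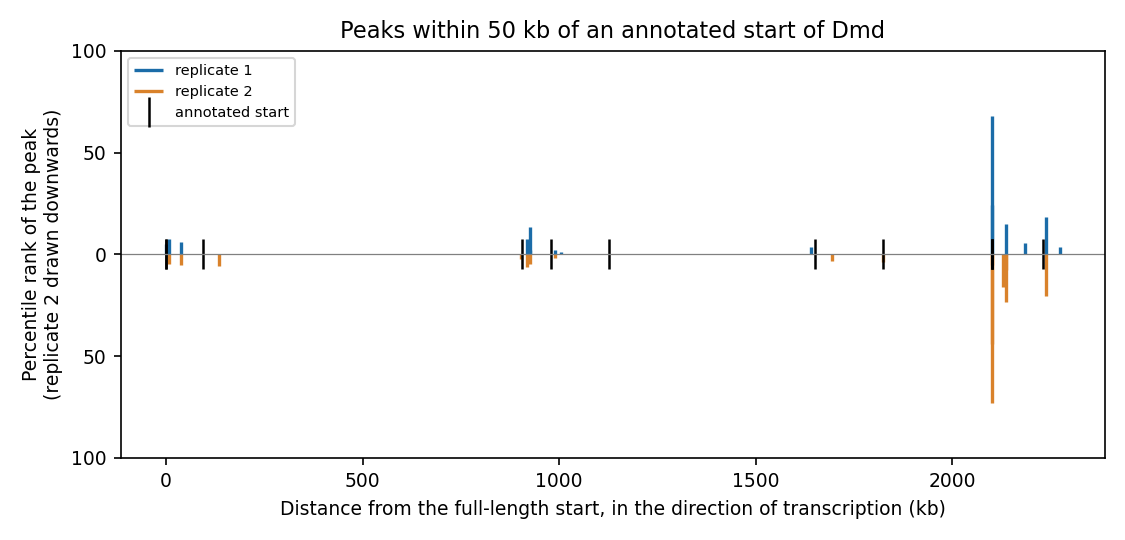
Peaks within 50 kb of the starts of Dmd by distance from the full-length start (kb, in the direction of transcription), with percentile rank as the height, replicate 1 upwards and replicate 2 downwards. Black marks are the annotated starts, and the intron 62 starts near the right carry the tallest peak in both libraries, at ranks 67.9 and 73.2, while the full-length start at 0 reached 5.12 in replicate 1 only.

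Utrn was open at its first exon. The start of Utrn-205 (position 12869365 of chromosome 10) had a peak of density 4.40 in replicate 1 (chr10:12869101-12869580, 9 footprints) and 3.16 in replicate 2 (chr10:12869101-12869340, 6 footprints), at ranks 90.9 and 93.7. The starts of Utrn-212, Utrn-208 and Utrn-211 in intron 1, 1.08 to 1.19 kb into the gene, were open in both libraries too. Their strongest peak was not the same in both: it lay at chr10:12868121-12868320 in replicate 1 (density 2.81, rank 84.7) and at chr10:12868541-12868800 in replicate 2 (density 1.67, rank 86.0).

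Weaker openings followed along the gene. Utrn-204 and Utrn-206, which start in intron 51, were open in both libraries at ranks 18.9 and 46.3, and 24.0 and 41.5. Those of Utrn-202, Utrn-210 and Utrn-209 in intron 2 shared a peak in replicate 2 only, at rank 30.2. The starts of Utrn-201, Utrn-207, Utrn-213 and Utrn-203 were open in neither. The window held 23 and 30 peaks, of which 21 and 22 were found in the other library. Its strongest shared distal peaks were the exonic one printed above (densities 1.32 and 1.06, ranks 66.6 and 76.8) and one in an intron (chr10:12821121-12821522, densities 0.88 and 0.75, ranks 50.6 and 66.6). The strongest start peak of Utrn, at its first exon, outranked that of Dmd, which lies at internal starts, in both libraries. The gap was 23.0 rank points in replicate 1 and 20.5 in replicate 2. At the full-length start of Dmd the rank was 5.12 in replicate 1, and replicate 2 had no peak there. The gap therefore does not compare the full-length starts of both genes. Males carry a single copy of Dmd, on the X chromosome, and the part of copy number in the gap was not tested.

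Dag1 had the strongest start peak of the 8 genes. Its 6 starts lie within 249 bp of each other and all were open in both libraries. The peak spanned chr9:108263901-108264100 in replicate 1, with density 19.2, rank 99.97 and 2 footprints, and chr9:108263841-108264100 in replicate 2, with density 8.67, rank 99.77 and 5 footprints. No other peak near the 8 genes had a higher density in either library. In the bases printed above, 75 of 142 lay in footprints of both libraries, the largest share among the start sequences shown, and these held 2 of the 3 GGGCGG matches (the GC box, a site for Sp-type factors) whole.

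The Dag1 window was crowded, with 18 and 19 peaks, or 18.0 and 19.0 per 100 kb, more than in 93.6% and 90.0% of protein-coding genes. It also held starts of other genes, with a peak of mean rank 89.8 at Nicn1, one of 91.1 at Rhoa, and one of 96.5 whose nearest start was that of Rhoa in replicate 1 and of Tcta in replicate 2. The strongest shared distal peaks lay upstream of Dag1, 16.3 kb away (densities 4.56 and 3.25, ranks 91.3 and 93.9) and 20.7 kb away (chr9:108284521-108284720, densities 2.26 and 1.42, ranks 80.7 and 83.2). Both lie nearer to the start of Nicn1, at 10.2 and 5.81 kb, and peaks carry no mark of the gene they act on.

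Among the sarcoglycans, Sgca was open at internal starts only. The start of the transcripts Sgca-202 and Sgca-205, at exon 1 (position 94976327 of chromosome 11), had no peak in either library. Those of Sgca-204 and Sgca-201, 2.84 and 2.86 kb further in, shared a peak of density 1.65 in replicate 1 (chr11:94973450-94973534, rank 73.4) and 1.03 in replicate 2 (chr11:94973381-94973580, rank 76.0). Sgca-203, which begins in exon 7, had the strongest start peak (chr11:94970341-94970540), of density 2.32 in replicate 1 and 1.75 in replicate 2, at ranks 81.3 and 86.8, but that peak lies within the gene, past the start of the transcript, and spans a CA repeat.

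The peak 2.80 kb upstream of exon 1, printed above, was stronger than any at an Sgca start, with densities 6.93 and 4.74, ranks 95.4 and 97.0 and 4 footprints in each library. A further peak (chr11:94928901-94929020, densities 9.55 and 5.04, mean rank 97.7), 41.7 kb from the start of Sgca-203, lay beyond Col1a1, the gene for a collagen I chain, and 7.26 kb from the nearest start of that gene. The Sgca window listed 28 peaks in replicate 1 and 58 in replicate 2, and 49 in replicate 2 once entries that overlap each other were merged. Unmerged, these were 26.5 and 54.9 per 100 kb, more than in 98.2% and 99.9% of protein-coding genes. Merged, the window held 1.75 times as many in replicate 2 as in replicate 1, the same ratio as at Dtna (14 against 8). The whole lists, unmerged, held 94295 and 123291 peaks. Within Col1a1 the lists held 7 and 28 entries, or 7 and 19 after merging, and 20 of the 28 had no counterpart in replicate 1. Unmerged, replicate 2 exceeded replicate 1 by 21 entries there, and 30 of 21951 protein-coding genes had an excess at least as large. Peaks covered 1475 and 7645 bases of that gene. Outside Col1a1 the counts were 21 and 30, with no overlapping entries. Fibroblast markers, Col1a1 itself among them, had start peaks in 5 of 6 genes in replicate 1 and 6 of 6 in replicate 2. The gene with a peak in replicate 2 only was Lum, at rank 40.2. Over all 21951 protein-coding genes, 14564 and 14952 had a start peak. The part of fibroblasts in the difference was not tested.

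**Figure D3:**
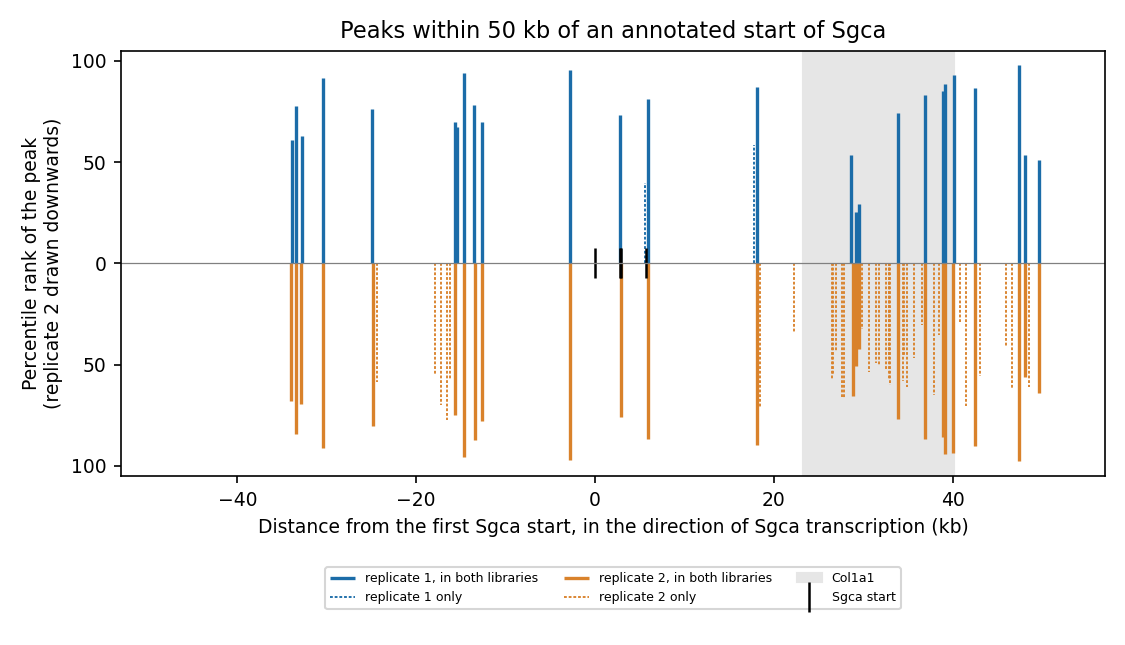
Peaks within 50 kb of the starts of Sgca by distance from its first start (kb, in the direction of Sgca transcription), with percentile rank as the height, replicate 1 upwards and replicate 2 downwards, and dotted lines for peaks in that library only. The grey band is Col1a1, where the lists held 28 entries in replicate 2 (19 after merging those that overlap) and 7 in replicate 1, and the first Sgca start at 0 has no peak while the site 2.80 kb before it has a tall one in both.

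Sgcb had a single open start, that of Sgcb-201 at exon 1 (position 73647790 of chromosome 5), with density 4.46 in replicate 1 (chr5:73647561-73647840, 6 footprints) and 2.86 in replicate 2 (chr5:73647601-73647840, 4 footprints), at ranks 91.0 and 92.7. The start of Sgcb-202 in exon 2 had no peak. The window held 8 and 7 peaks, and its shared distal peaks, 2 in number, had mean ranks of 43.1 (chr5:73642241-73642360, densities 0.82 and 0.42) and 23.4 (chr5:73599375-73599470, densities 0.42 and 0.36). Sgcd was open at 2 of 4 starts. That of the coding transcript Sgcd-201 (position 47379522 of chromosome 11) had a peak at chr11:47379241-47379500 in both libraries, with densities 2.46 and 1.78 and ranks 82.4 and 87.0. The non-coding Sgcd-203, which begins 609 kb upstream, had densities of 1.30 and 0.81 at ranks 66.3 and 69.2. The window held 9 and 11 peaks, and its strongest shared distal peaks, both intronic, had mean ranks of 44.9 (chr11:47952461-47952620, densities 0.80 and 0.46) and 35.6 (chr11:47377512-47377740, densities 0.47 and 0.51).

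Sspn was open at Sspn-201 alone (position 145934122 of chromosome 6), with density 3.19 in replicate 1 (chr6:145934001-145934200, 1 footprint) and 2.22 in replicate 2 (chr6:145934001-145934400, 3 footprints), at ranks 86.7 and 90.0. The starts of Sspn-203 and Sspn-202 had no peak. Of its 7 and 8 peaks, the strongest shared distal ones lay far downstream, the printed site 45.4 kb from the nearest Sspn start (densities 2.55 and 1.36, ranks 83.0 and 82.3) and another at 39.8 kb (chr6:145993101-145993260, densities 1.61 and 0.94, ranks 72.7 and 73.4). The nearest annotated start of any gene to both was that of Gm32914, at 2.92 and 8.58 kb.

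Dtna, on chromosome 18, had the lowest rank of the 8 genes for its strongest start peak. A cluster of 6 starts between positions 23415135 and 23415510 was open in both libraries. The strongest peak was another in each library, at chr18:23415241-23415420 in replicate 1 (density 0.98, rank 55.1) and at chr18:23414981-23415160 in replicate 2 (density 0.63, rank 59.6), and each held 3 footprints. Dtna-209, which begins in exon 23, was open in replicate 2 only, at rank 17.2, and starts in introns 2, 3 and 4 were open in neither. The window held 8 and 14 peaks. Its strongest shared distal peaks, both intronic, had mean ranks of 37.3 (chr18:23647041-23647200, densities 0.65 and 0.41) and 36.0 (chr18:23632003-23632139, densities 0.54 and 0.47).

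Across the 8 windows, 2481 kb in all, 85.3% of the peaks of replicate 1 were found in replicate 2 and 60.1% of those of replicate 2 in replicate 1, where an overlap of 1 bp counted. The backgrounds over all peaks were 79.6% and 60.8%, so the members' shares lay near those of the libraries as a whole. Distal peaks numbered 70 and 104, and 57 and 56 of them were shared, or 81.4% and 53.8% against 75.5% and 54.1% of all distal peaks. By gene, the shared share of replicate 1 ran from 60% at Dmd (9 of 15) to 92.9% at Sgca (26 of 28). In replicate 2 it ran from 43.1% at Sgca to 100% at Sgcb, whose 7 peaks were all found. Sgca thus stood at either end, with its replicate 2 peaks in Col1a1 counted in. It gave 58 of the 163 member peaks of replicate 2, of which 25 were shared. The nearness of the pooled replicate 2 share to its background therefore depends in part on this window.

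**Figure D4:**
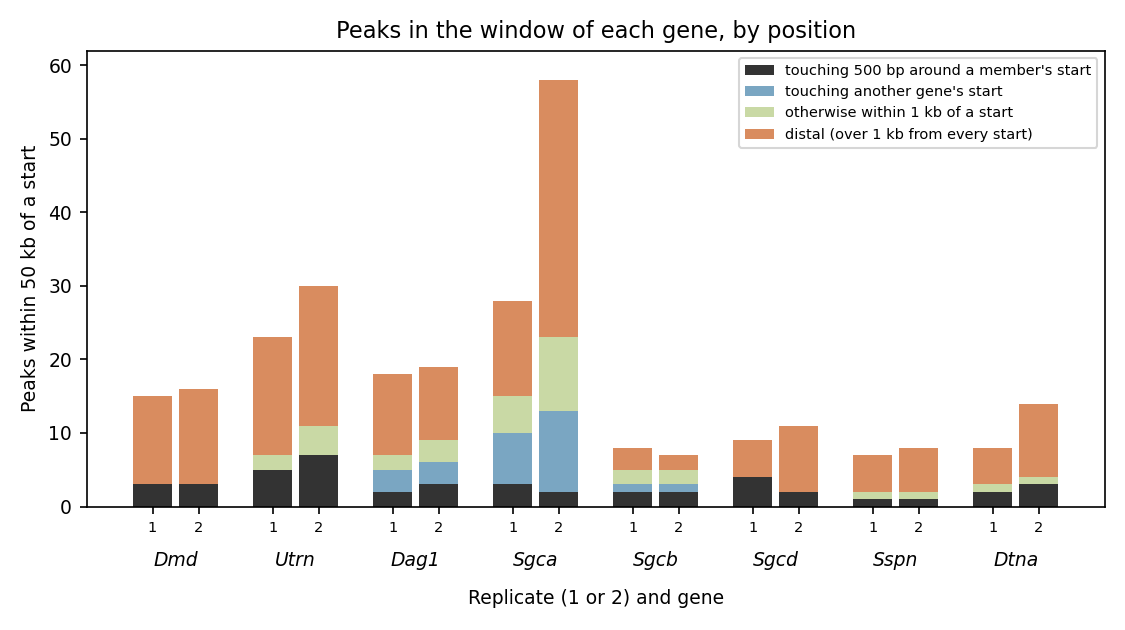
Number of peaks within 50 kb of the starts of each gene in replicates 1 and 2, stacked by position. The Sgca window holds 28 and 58 peaks and differs most between the libraries, while those of Dmd, Dag1, Sgcb and Sspn differ by 1 peak.

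Member peaks matched 1 to 1 between libraries numbered 96. Their density in replicate 1 was a median of 1.44 times that in replicate 2, against 1.41 over all 73156 pairs. The ratio was 1.68 over 9 pairs at Dmd, 1.58 over 6 at Sspn, 1.24 over 21 at Utrn and 1.16 over 7 at Dtna, and between 1.42 and 1.49 at the other genes. Of the 9 pairs at Dmd, 7 are its weak distal peaks, and no spread is given for a gene's ratio. By rank, 70 of the 96 pairs lay within 10 points of each other (72.9%, against 67.6% of all pairs), and 78 ranked higher in replicate 2 (81.2%, against 84.0%). These shifts have no test, since peaks of a library are not replicates of it.

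**Figure D5:**
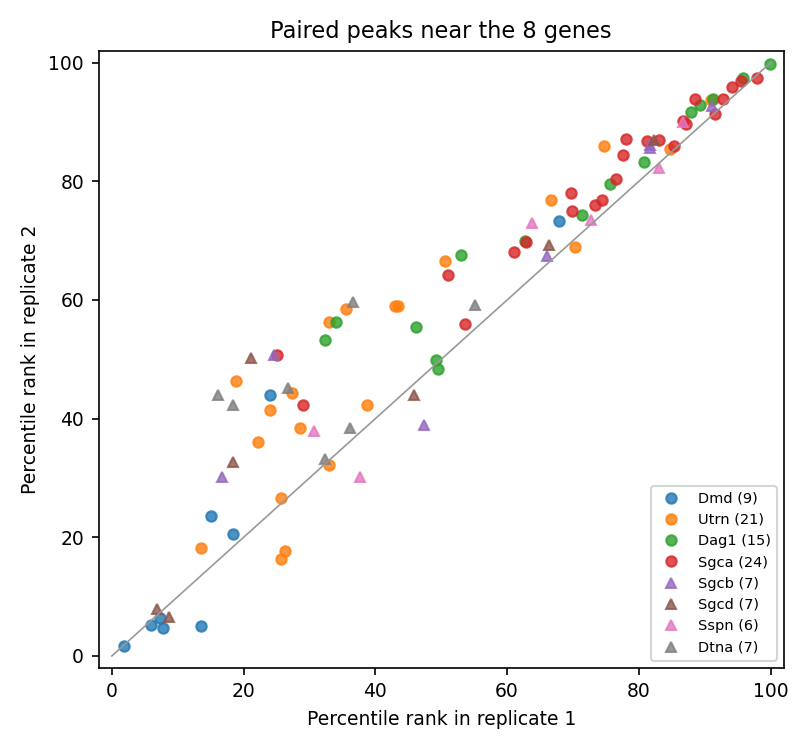
Percentile rank in replicate 1 against replicate 2 of the 96 paired peaks near the 8 genes, with the number of pairs of each gene in the legend and the line of equal ranks in grey. Peaks of Dmd crowd the lower left, those of Dag1 and Sgca the upper right, and 78 of the 96 points lie above the line.

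Footprints numbered 226 in the member peaks of replicate 1 and 438 in those of replicate 2, or 1.95 and 2.69 per peak, against 1.94 and 2.31 over all peaks. In replicate 2, 191 of the 438 were counted in the 58 peaks of the Sgca window. A footprint inside overlapping entries was counted in each of them, and the Sgca window of replicate 2 held such entries. At least 1 footprint was found in 82.8% and 85.3% of member peaks, against 78.4% and 83.4% of all. Dmd had the lowest shares, 60% (9 of 15) and 56.2% (9 of 16), and Sgca the most footprints per peak in both libraries, 2.54 and 3.29. The median width was 176 bp in replicate 1 and 200 bp in replicate 2, against 180 bp over all peaks of each. In the paired peaks, 69.8% of the footprints of replicate 1 touched a footprint of replicate 2, and 45.5% the other way, against 71.4% and 54.0% over all pairs.

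Base composition around the starts went with whether they were open. The ratio of CpG dinucleotides observed to those that base content would give, over the 1 kb around a start, had a median of 0.490 over the 29 member starts open in both libraries, 0.271 over the 7 open in a single library and 0.193 over the 19 open in neither. Over all starts of protein-coding genes the medians were 0.724, 0.316 and 0.216 in the same order. Within Dmd the ratio was 0.153 at the full-length start of Dmd-203 and 0.548 at the start of Dmd-201. Dag1 reached 0.985 at Dag1-201, and the first start of Sgca, with no peak, had 0.162. The starts of Sgca and Dtna open in both libraries, from 0.189 to 0.294, had ratios as low as those of many starts with no peak.

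Short motifs were sought on both strands in the 200 bp around the centre of each peak found in both libraries. Such member peaks with a start of any gene within 500 bp numbered 28. CATTCC (the MCAT element bound by TEAD factors) was present in 8 of them, or 28.6%, against 7.52% of 23041 such peaks of the whole genome. CAGCTG, an E-box of the kind bound by MyoD and myogenin, was in 6 (21.4% against 15.2%), and GGGCGG in 16 (57.1% against 55.2%). CACCTG, the other E-box sought, was in 2 (7.14% against 12.3%). CCGGAA, the N-box of synaptic genes, was in 4 (14.3% against 17.6%). TCAGGTT, the MEF3 sequence, was in 1 (3.57% against 1.64%). TGANTCA (AP-1) and a MEF2 sequence were in none of the 28 (against 2.83% and 0.221%). Among 56 distal member peaks, CAGCTG was present in 19 (33.9% against 29.9% of 45190), TGANTCA (AP-1) in 8 (14.3% against 7.88%) and a MEF2 sequence in 3 (5.36% against 0.429%). CACCTG was in 8 of these distal peaks (14.3% against 15.6%), CATTCC in 6 (10.7% against 13.8%) and GGGCGG in 6 (10.7% against 11.8%). CCGGAA was in 3 (5.36% against 4.61%) and TCAGGTT in 1 (1.79% against 2.47%). TGACGTCA and the CArG and NFI sequences were present in none of either kind, where they lay in at most 2.24% of all such peaks. A match describes letters and is not a binding site, and peaks of a cluster share starts, so these shares stand as counts.

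Matches were then set against the footprints. Within the paired member peaks, footprints of both libraries held 13 of 38 GGGCGG matches (34.2%, against 26.3% over all paired peaks), 1 of 14 CATTCC (7.14% against 4.57%), 1 of 11 TGANTCA (9.09% against 1.64%) and 0 of 27 CAGCTG (against 7.84%). Most of these GGGCGG matches lay away from the starts of the 8 genes, some of them at starts of Nicn1, Col1a1 and Samd14. The CATTCC match lay at Col1a1 too. Footprints of either library held 21 GGGCGG, 2 CATTCC, 1 TGANTCA and 3 CAGCTG, or 55.3%, 14.3%, 9.09% and 11.1%, against 44.6%, 12.3%, 6.72% and 23.9% over all paired peaks. None of 8 CACCTG and 2 MEF2 matches lay in a footprint of either library, against 30.8% and 6.80% over all paired peaks. A CTCF-like sequence, sought after the printed sequences had been seen, was held in footprints of both in 4 of 7 (57.1% against 70.5%) and of either in 7 of 7 (against 88.3%). Its share among distal member peaks was 10.7%, against 13.4% of all distal peaks. Of those 4, the following 3 lie in the exonic Utrn peak (chr10:12690818-12690829), beside the start of Col1a1 in the Sgca window (chr11:94937176-94937187) and in the peak upstream of Sgca (chr11:94979091-94979102). They are written on the plus strand of the reference, with the match in capitals and 10 bases on either side.
Utrn exon: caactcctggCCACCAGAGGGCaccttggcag
Col1a1 side: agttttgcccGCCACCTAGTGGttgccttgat
Sgca upstream: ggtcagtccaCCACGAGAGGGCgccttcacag

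The genes were read against fixed lists of their partners. Of 12 other genes of the complex, 11 had a start peak in both libraries, and the remaining gene, Sgcz (zeta-sarcoglycan), had a weak peak in replicate 2 only, at rank 15.4. The strongest in the list was the syntrophin Sntb2, at 96.7 ± 1.04 (SD, n = 2). All 18 genes listed for making the sugar chains of dystroglycan or their precursors had a start peak in both libraries, with a median rank of 93.2. The highest was Dolk, a kinase of the lipid carrier of sugars, at 99.2 ± 0.32. Against these lists the 8 genes held a middle place, with medians of 78.0 for the other complex genes and 86.5 for the 8. Over all protein-coding genes, 65.2% had a start peak in both libraries, at a median rank of 92.1. That median lay above those of the 8 and of the other complex genes, and near that of the sugar chain list.

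The muscle label was checked against markers of muscle and of other cell types. Start peaks in both libraries were found at 10 of 10 muscle markers, 7 of 7 of pericytes and smooth muscle, 5 of 6 of fibroblasts, 4 of 6 of endothelium, 5 of 8 of Schwann cells, 1 of 5 of neurons and 0 of 4 of liver, where 65.2% of all protein-coding genes had them. The shares of endothelium and Schwann cells lay near that background. The median rank of the markers open in both libraries was 79.8 for muscle, 93.9 for Schwann cells, 93.4 for fibroblasts, 82.2 for pericytes and smooth muscle and 69.0 for endothelium, so muscle markers were not the strongest. Several members, such as Utrn, Dag1 and the short forms of Dmd, are known to be made in those other cells also, and their part in the peaks was not tested.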

How the data were processed

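DNase-seq was read in 2 libraries of 1 group. The authors deposited, for each library by itself, a longer and a shorter peak list, footprints and stretches with a false discovery rate, on build mm10 per the file listings; the tools for alignment and peak calling were not given in the sources used here. The deposited density of a peak is a signal with no stated scale, and all values of a library were whole multiples of 1 step (0.00675 and 0.00333, tolerance 0.1 steps). If 1 step is 1 cut and the density is scaled to the depth of the library, replicate 2 was sequenced 2.03 times deeper. Neither assumption was tested, and total depths are not known. The deposited q-value (FDR) stretches reach 0.05, and every peak of the longer lists held such a stretch below 0.05, those of the shorter lists below 0.001. The deposited footprints carry the constant 0.01 as their value, whose meaning is not stated, and only their positions were used.

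Starts came from GENCODE vM21 and sequence from RefSeq GRCm38.p6, through pysam 0.24.0, with pandas 2.3.3 and numpy 2.4.6. Overlapping entries of a list, 1073 and 2304 pairs, were counted singly. The overlap, ranking and motif code was tested on simulated data. The rule for named items took all 8 genes in the order of their roles, every start with a peak, the strongest start peak, the 2 strongest shared distal peaks of each by mean rank, every Dmd start, and of the partner lists the 2 highest genes and any with a peak in neither library. Some items that this rule names are not reported here. The members, lists and the rest of the rules were chosen with earlier results of these data known. No p-value was computed, since there was 1 group. Intervals for shares are not given, as peaks are not independent. Alternatives were the shorter lists, windows of 20 and 100 kb, promoters of 200 and 1000 bp, coding starts only, 50% overlap, other footprint counting and each library by itself.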

Additional observations from a re-analysis of the deposited data

How the results depend on the processing

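Over all 9 main values and their alternatives, 53 recomputed values held and 8 moved. Counts held within a fixed fold of the main value, and the density ratio within a fixed difference. Shares and footprints per peak held when they moved by less than the SD over both libraries. By that rule they could only hold when a library was left out, so those values are no test. The mean number of peaks near the 8 genes, 139.5 ± 33.2 (SD, n = 2), was 89.0 with the shorter lists and 81.0 with a window of 20 kb. That of shared distal peaks, 56.5, was 24.5 with the shorter lists, 31.5 with 20 kb and 93.5 with 100 kb. The list and the window set these counts by construction. The median density ratio of replicate 1 to replicate 2, 1.44, was 1.43 with the shorter lists, with 20 kb and with coding starts. Leaving out a library gave 116 to 163 peaks. Further alternatives were chosen after seeing the data: merging overlapping entries gave 134 peaks, and leaving out those in Col1a1 gave 122. Ranks within the shorter lists were lower for all 8 genes, at 50.2 for Dmd and 30.9 for Dtna, since the weak peaks are left out of them, and that of Dag1 moved least, from 99.87 to 99.78. No paired analysis was possible because there was 1 group. With 2 libraries, SD values are themselves uncertain, and a start with no peak was not detected at this depth, which is not known.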
